A study of Mus musculus with 9 samples.

Results

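The hypoxia-inducible factor (HIF) genes and a panel of genes that HIF is known to drive were measured in the midbrain of mice with and without DJ-1. The set holds 10 of the 26602 genes with at least 1 count in any library: the factor subunits Hif1a, Epas1 and Arnt, the oxygen sensors Egln1 and Egln3, the secreted peptides Vegfa and Adm, and the intracellular targets Bnip3, Ankrd37 and Ddit4. They were picked by symbol, as factors, sensors and widely used targets of the pathway. The rule used no measured value, but the choice was made with earlier results of these data known. All 10 passed the filter on low counts, and none passed the test between genotypes across all genes.

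HIF is a pair of proteins. An oxygen-sensitive alpha subunit, encoded by Hif1a or Epas1, joins the stable partner encoded by Arnt and binds DNA at a short core sequence. When oxygen is plentiful, prolyl hydroxylases such as those of Egln1 and Egln3 mark the alpha subunit, the von Hippel-Lindau protein (Vhl) recognises the mark, and the subunit is degraded. Because this control acts on the protein, the transcript of Hif1a is a poor guide to HIF activity, whereas transcripts of the targets are its usual readout. In the brain, Epas1 is known for its expression in endothelial cells and Vegfa for guiding vessels.

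Poly(A) RNA was taken from midbrain that includes the substantia nigra. There were 4 DJ-1+/+ (wild-type) and 5 DJ-1-/- mice. The latter are homozygous for a germline targeted Park7 allele that was backcrossed to C57BL/6 and bred from heterozygous parents. The mice were 3 to 4 months old and had no treatment by the labels. The study's methods name CO2 and isoflurane for killing mice of this age, and which mouse had which is not given in the sources used here. CO2 lowers oxygen at death, and its part in the levels of hypoxia genes was not tested. Each library came from a different mouse and was read at the 3′ ends of transcripts, with unique molecular identifiers (UMIs) to count molecules. UMI counts summed to between 841974 and 886085 in the DJ-1+/+ libraries and to between 967751 and 1098125 in the DJ-1-/- libraries. A count of 3, the limit that a count of 0 allows, was worth 2.73 to 3.56 cpm (UMI counts scaled to a library total of 1000000), which covers counting error only. Levels are given as cpm. In bulk tissue, fewer cells of a type and less RNA per cell cannot be told apart.

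Park7, which encodes DJ-1, lay between 119 and 157 cpm in DJ-1+/+ and between 14.4 and 26.4 cpm in DJ-1-/-, so every library matched its genotype label. Some libraries stood apart in ways the genotype does not explain. Xist, a transcript of the inactive X chromosome, had 0 to 2 counts in DJ-1+/+ replicates 1 and 4 and in DJ-1-/- replicate 5, against 146 to 193 counts in the other 6 libraries. DJ-1+/+ replicate 1 carried cerebellar transcripts, with 102 counts of Gabra6 against 0 to 2 elsewhere. DJ-1+/+ replicate 4 carried the most choroid plexus transcripts, with 342 counts of Ttr and 31 of Folr1. The dopaminergic markers Th and Slc6a3 were present in all 9 libraries, at 33.9 to 115 and 23.3 to 130 cpm. The difference of each member and of each pathway gene that was called or did not overlap is therefore also given over the 6 libraries with Xist (2 DJ-1+/+ and 4 DJ-1-/-), which leave out those 3 libraries together.

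Most of the 10 genes overlap no other annotated gene or only genes with few counts. On the GRCm38 build used for the files, Hif1a (ENSMUSG00000021109) lies on chromosome 12 from 73901375 to 73947530. Epas1 (ENSMUSG00000024140) lies on chromosome 17 from 86753700 to 86833410. Arnt (ENSMUSG00000015522) lies on chromosome 3 from 95434388 to 95497240, and all 3 factor genes are on the plus strand. Egln1 (ENSMUSG00000031987) lies on the minus strand of chromosome 8 from 124908587 to 124949324, and Egln3 (ENSMUSG00000035105) on the minus strand of chromosome 12 from 54178981 to 54203860. Vegfa (ENSMUSG00000023951) lies on the minus strand of chromosome 17 from 46016993 to 46032369. Adm (ENSMUSG00000030790) lies on the plus strand of chromosome 7 from 110627661 to 110629820. Bnip3 (ENSMUSG00000078566) lies on the minus strand of chromosome 7 from 138890836 to 138909519. Ankrd37 (ENSMUSG00000050914) lies on the minus strand of chromosome 8 from 45996902 to 46005707, and Ddit4 (ENSMUSG00000020108) on the minus strand of chromosome 10 from 59949669 to 59951834. Ankrd37 overlaps Ufsp2 on the opposite strand, which had 1018 counts over the 9 libraries against 86 for Ankrd37. It also overlaps Lrp2bp on the opposite strand, which had 13 counts. Whether strand was used in counting is not given in the sources used here, so reads of these genes may not be separable. For the other members, overlapping genes summed to no more than 7 counts each.

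The core that HIF binds was looked for at the members' promoters. HIF binds DNA at ACGTG or GCGTG, and these letters were sought on either strand in RefSeq promoter windows of 300 bases, from 250 bases upstream of a transcription start to 50 downstream (GRCm38.p6). Windows were found for 9 of the 10 genes, Epas1 being the one without. All 9 genes had at least 1 match in a window, against 46.7% of the 27025 genes with a window. Vegfa has 2 windows and held matches in the second alone. The first, at the start of the annotated gene, held none. The second lies inside the gene, and the stretches around its matches overlap a Vegfa exon. With it, 9 of the members' 10 windows held either core, against 43.8% of all 32851 windows (19.6% for ACGTG and 32.4% for GCGTG). The letters CACGTG match on both strands, and other matches can overlap as well. With overlapping matches merged, the 22 matches came to 19 sites, of which Bnip3 had 4, Ankrd37 had 3 and the other 7 genes 1 or 2 each. One stretch of 29 bases upstream of the start is printed for 6 members, to show where the core stands in a factor gene, a sensor, a ligand and the 3 intracellular targets. Each reads 5′ to 3′ along the gene's own strand, with the core in capitals (GCGTG on the opposite strand reads CACGC).
Hif1a: acacagacaagcACGTGagcggggcagct
Egln3: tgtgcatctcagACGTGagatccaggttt
Adm: tttagaagcaagCACGCtggagagggagg
Bnip3: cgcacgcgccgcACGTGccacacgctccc
Ankrd37: ttcactgcgcacGCGTGctgcggccgcct
Ddit4: agaacgttgcgaACGTGcgcccggtgcct
They stand at chr12:73907721-73907749, chr12:54204087-54204115, chr7:110627555-110627583, chr7:138909597-138909625, chr8:45999986-46000014 and chr10:59951941-59951969 in that order. None overlaps an annotated exon. The Hif1a and Ankrd37 stretches lie within the annotated gene, upstream of the RefSeq start. A match is a description of the letters and not a measured binding site.

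The range of counts in these libraries bears on every member. Gapdh, a glycolytic enzyme gene that is among the most abundant in brain, had 103 to 141 counts per library, and its mean of 124 cpm was below that of Hif1a at 130 cpm. The gene mt-Co1, encoded in the mitochondrial genome, averaged 408 cpm. The mean count of 2442 genes lay between 100 and 150 per library, and that of 592 genes between 150 and 200. Hif1a, Epas1, Egln1 and Bnip3 lie in the first of these bins. The ratio of variance to mean between mice of a genotype is 1 for pure counting error. Its median was 0.881 in that bin, against 1.25 for genes with 20 to 50 counts. At higher counts it was 1.2 (150 to 200) and 1.49 (200 to 1500). Differences in the bin of 100 to 150 counts may be understated, and whether counts there scale with molecules was not tested. The bin's median log2 fold change was -0.03 and that of the 20 to 50 bin was 0.04. The plot of spread against count places Egln3 above and Bnip3 below most genes of like count.

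**Figure D1:**
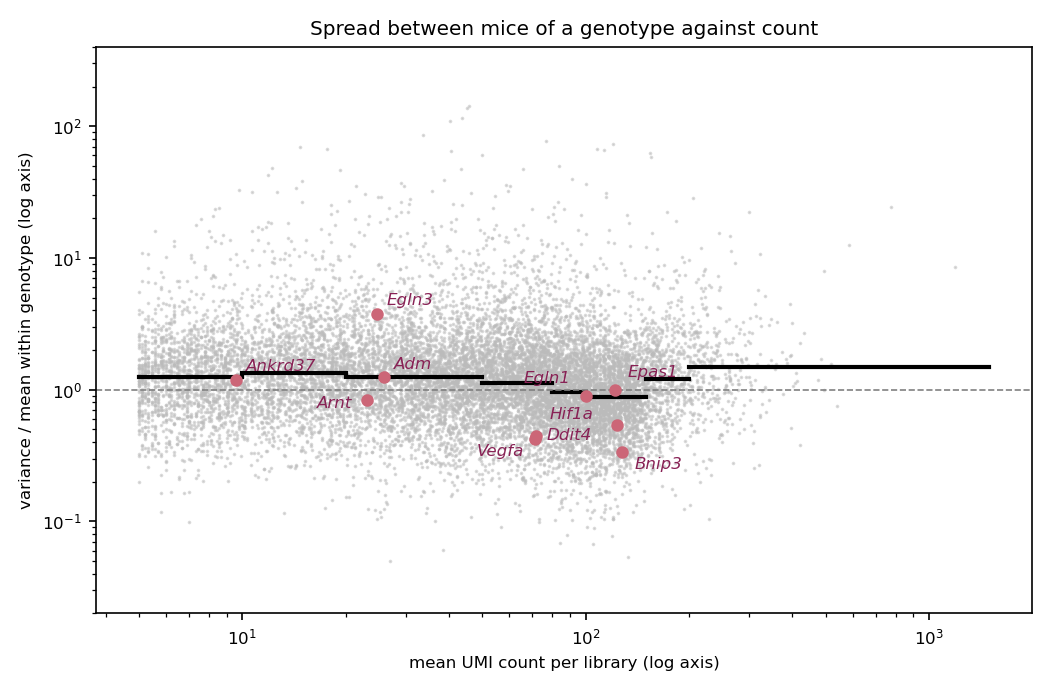
Ratio of variance to mean of UMI counts between mice of a genotype (log axis) against the mean count per library (log axis), for genes with a mean of at least 5 counts (grey points). Black lines give the median of each bin of mean count, the dashed line marks pure counting error, and red points mark the 10 genes, of which Egln3 stands at 3.77 and Bnip3 at 0.337.

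The transcripts of the factor subunits did not differ between genotypes beyond the spread between mice. Hif1a had 147, 123, 135 and 117 cpm in DJ-1+/+ replicates 1 to 4 and 132, 128, 133, 127 and 128 cpm in DJ-1-/- replicates 1 to 5. The DJ-1-/- values lay inside the DJ-1+/+ range. The means were 131 ± 13.3 (SD, n = 4) and 130 ± 2.73 (SD, n = 5) cpm. As a log2 fold change of DJ-1-/- over DJ-1+/+, the difference was -0.01, with a 95% interval from -0.18 to 0.16 (edgeR quasi-likelihood p = 0.922, exact permutation p = 0.905). The interval holds changes in counts between 0.881-fold and 1.12-fold. A change of the transcript may be understated in this range of counts, as described above.

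Epas1, the other alpha subunit gene, had 125.9, 142.1, 115.2 and 125.3 cpm in DJ-1+/+ and 142.1, 135.7, 110.4, 129.2 and 127.7 cpm in DJ-1-/-. The groups overlapped over nearly their whole range. The difference was 0.02 on the log2 scale (95% interval -0.17 to 0.21, edgeR p = 0.805, exact permutation p = 0.825). The summed level of 10 endothelial markers, the cells in which Epas1 is best known, was 525 to 658 cpm in DJ-1+/+ and 526 to 638 cpm in DJ-1-/-. Hif1a made up 46.4% to 54.7% of the counts of Hif1a and Epas1 together, with means of 50.6% ± 3.88 (SD, n = 4) in DJ-1+/+ and 50.2% ± 2.59 (SD, n = 5) in DJ-1-/- (exact permutation p = 0.825).

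Arnt, the shared partner, was the least abundant factor. Its values were 23.8, 29.5, 25.6 and 19.2 cpm in DJ-1+/+ and 26.0, 31.0, 20.6, 18.6 and 24.4 cpm in DJ-1-/-, from 17 to 34 counts each. On the log2 scale the difference was -0.02, with a wider interval, from -0.48 to 0.44 (edgeR p = 0.934, exact permutation p = 0.968). Its neuronal relative Arnt2 was more abundant, at 134 to 163 cpm, and Arnt made up 10.7% to 18.3% of the counts of the pair. These shares did not separate the genotypes (exact permutation p = 0.984).

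The oxygen sensors behaved unlike each other between mice. Egln1, the main HIF prolyl hydroxylase, had 131, 106, 107 and 93.7 cpm in DJ-1+/+ and 100, 109, 106, 101 and 102 cpm in DJ-1-/-. DJ-1+/+ mice held both the highest and the lowest value. This gave a log2 fold change of -0.07 (95% interval -0.27 to 0.13, edgeR p = 0.476, exact permutation p = 0.619).

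Egln3, a hydroxylase gene that HIF itself induces, varied most among the members with over 20 counts per library. It had 39.2, 28.4, 16.3 and 14.7 cpm in DJ-1+/+ and 39.0, 32.8, 16.5, 21.7 and 23.4 cpm in DJ-1-/-. Replicates 1 and 2 of each genotype were high, and the highest mouse was 2.67-fold above the lowest. Its variance between mice of a genotype was 3.77 times the mean count, so this spread was larger than counting error. The means of 24.6 ± 11.5 (SD, n = 4) and 26.7 ± 9.07 (SD, n = 5) cpm did not differ beyond that spread (log2 fold change 0.12, 95% interval -0.53 to 0.77, edgeR p = 0.693, exact permutation p = 0.714). Taking Egln1, Egln2 and Egln3 together, Egln3 made up 6.70% to 16.0% of the counts, Egln1 41.2% to 49.0% and Egln2 37.0% to 50.5%. None of these 3 shares separated the genotypes (exact permutation p = 0.603, 0.619 and 0.984).

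Neither secreted ligand passed the test between genotypes. Vegfa, the principal angiogenic growth factor, had 86.7, 71.6, 79.1 and 70.0 cpm in DJ-1+/+ and 72.1, 69.2, 80.5, 74.4 and 74.1 cpm in DJ-1-/-. The highest value came from DJ-1+/+ replicate 1 and the groups overlapped. Between genotypes the log2 fold change was -0.05 (95% interval -0.28 to 0.17, edgeR p = 0.638, exact permutation p = 0.524). Adm, the vasodilator peptide adrenomedullin, had 21.4, 25.0, 38.4 and 27.1 cpm in DJ-1+/+ and 21.0, 24.6, 28.9, 34.1 and 25.3 cpm in DJ-1-/-. Replicate 3 of DJ-1+/+ was highest. For Adm the log2 fold change was -0.07 (95% interval -0.53 to 0.39, edgeR p = 0.766, exact permutation p = 0.746).

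Of the 3 intracellular targets, Ddit4 and Ankrd37 had higher means and Bnip3 a lower mean in DJ-1-/- mice, and none passed the test between genotypes. Ddit4, which restrains mTOR complex signalling, had 78.4, 63.6, 67.5 and 74.5 cpm in DJ-1+/+ and 81.1, 72.9, 74.3, 81.6 and 85.8 cpm in DJ-1-/-. The 3 highest mice were DJ-1-/- and the 2 lowest DJ-1+/+, with overlap between. The means were 71.0 ± 6.66 (SD, n = 4) and 79.1 ± 5.41 (SD, n = 5) cpm, and the log2 fold change was 0.16 (95% interval -0.07 to 0.39, edgeR p = 0.182, exact permutation p = 0.0952). The interval reaches up to 1.31-fold.

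Ankrd37, a small ankyrin-repeat gene used as a hypoxia marker, was the least abundant member, at 4 to 16 counts per library. It had 7.13, 4.55, 6.98 and 13.5 cpm in DJ-1+/+ and 7.01, 12.7, 11.3, 10.3 and 15.6 cpm in DJ-1-/-. DJ-1+/+ replicate 4 lay among the DJ-1-/- mice, and DJ-1-/- replicate 1 among the DJ-1+/+ mice. The log2 fold change of 0.50 had the widest interval of the set, from -0.29 to 1.28 (edgeR p = 0.199, exact permutation p = 0.206), so at this depth the data allow anything between 0.819-fold and 2.43-fold. DJ-1+/+ replicate 4 was rich in choroid plexus transcripts and had 1 count of Xist. Without it the log2 fold change was 0.87 and the unadjusted edgeR p 0.044. With Xist as a covariate over all 9 libraries they were 0.75 and 0.0616. The part of either trait was not tested. Over the 17 alternatives the unadjusted p of Ankrd37 ran from 0.044 to 0.446. Only that without DJ-1+/+ replicate 4 was below 0.05.

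Bnip3, a receptor that recruits autophagosomes to mitochondria, was the most abundant member and the least variable. Its values were 142.5, 135.2, 133.8 and 146.7 cpm in DJ-1+/+ and 145.1, 132.0, 125.9, 130.2 and 129.6 cpm in DJ-1-/-. All but DJ-1-/- replicate 1 among the knockouts lay below the lowest DJ-1+/+ mouse. The means were 140 ± 6.11 (SD, n = 4) and 133 ± 7.38 (SD, n = 5) cpm, with a log2 fold change of -0.07 (95% interval -0.24 to 0.09, edgeR p = 0.386, exact permutation p = 0.143). Without DJ-1-/- replicate 1 the means differed by -10.1 cpm (exact permutation p = 0.0286). Leaving out that mouse leaves no overlap between the groups, so this p is the smallest the test can give. With any other library left out the exact permutation p was 0.107 to 0.321. The edgeR p stayed above 0.05 in all 17 alternatives. Its relative Bnip3l gave 49.6% to 58.6% of the pair's counts to Bnip3, and these shares overlapped between genotypes (exact permutation p = 0.698).

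**Figure D2:**
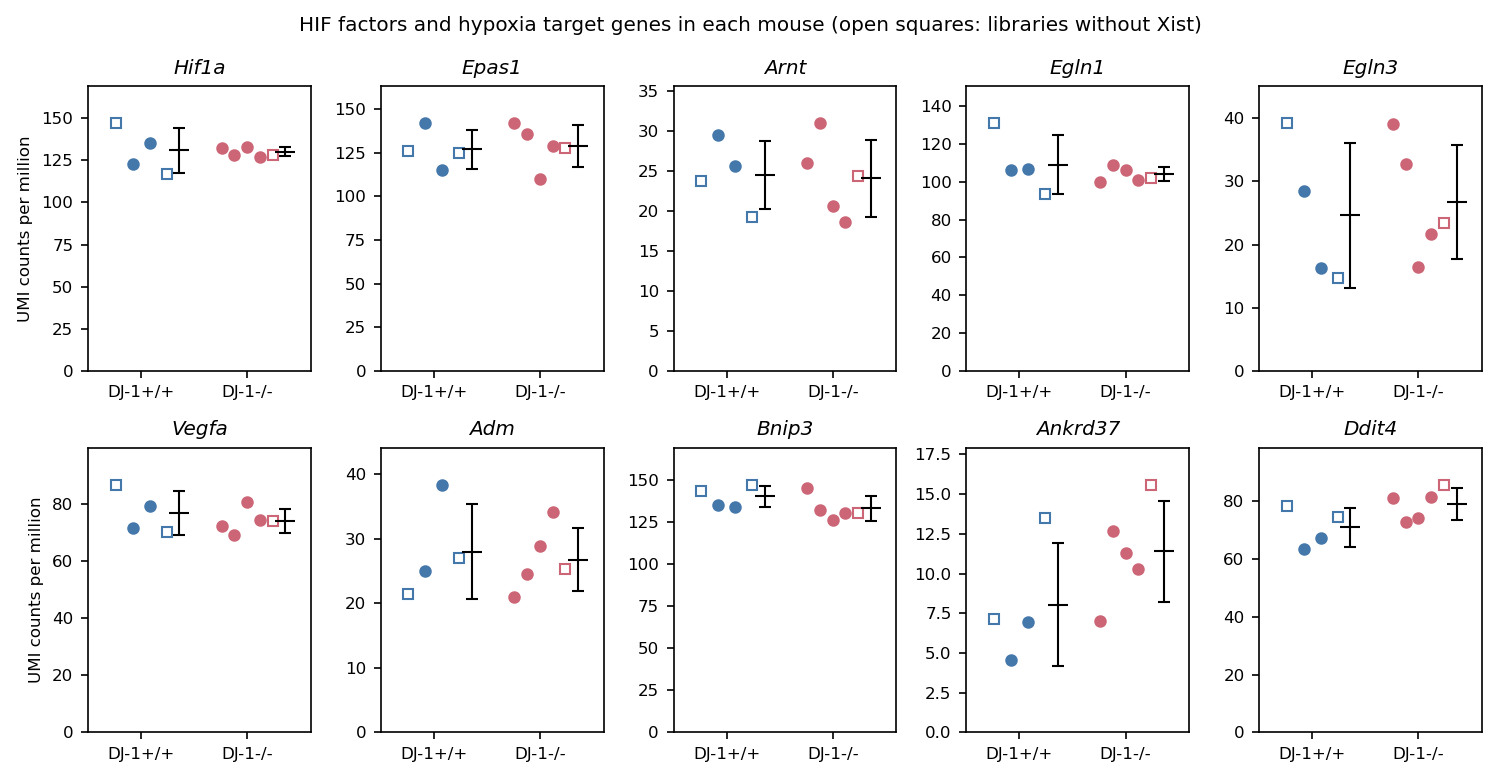
Level of each of the 10 genes in every mouse, in cpm on axes that start at 0, for 4 DJ-1+/+ (blue) and 5 DJ-1-/- (red) mice, with the mean and SD in black and the 3 libraries without Xist as open squares. The genotypes overlap for all 10 genes, and Egln3 shows the widest relative spread among genes with over 20 counts per library.

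Across the set, 0 of 10 members passed an adjusted p of 0.05 and 0 passed an unadjusted p of 0.05, by edgeR and equally by DESeq2. Over all 18127 genes tested, 0.00552% passed the adjusted threshold, a share made up by Park7 alone, and 2.82% passed the unadjusted one (1.55% higher and 1.27% lower in DJ-1-/-). The cpm of 0 members failed to overlap between genotypes, against 1.25% of all genes. At such background shares a count of 0 among 10 genes does not stand out. There were 4 members with a positive and 6 with a negative log2 fold change. Their median was -0.01, and that of all genes was 0.01. The sign for 7 members, Hif1a, Epas1, Arnt, Egln1, Egln3, Vegfa and Adm, turned when some single library was left out, so no direction is given for them. The sum over the 10 genes was 702 to 803 cpm in DJ-1+/+ and 708 to 766 cpm in DJ-1-/-.

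Within the 6 libraries with Xist, no member passed an unadjusted p of 0.05. The log2 fold changes were 0.01 for Hif1a and for Epas1, -0.19 for Arnt, -0.03 for Egln1 and for Vegfa, 0.30 for Egln3, -0.23 for Adm, -0.02 for Bnip3, 0.84 for Ankrd37 and 0.24 for Ddit4. The last pair had unadjusted p-values of 0.109 and 0.13. An exact permutation test of 2 against 4 mice cannot go below 0.0667.

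**Figure D3:**
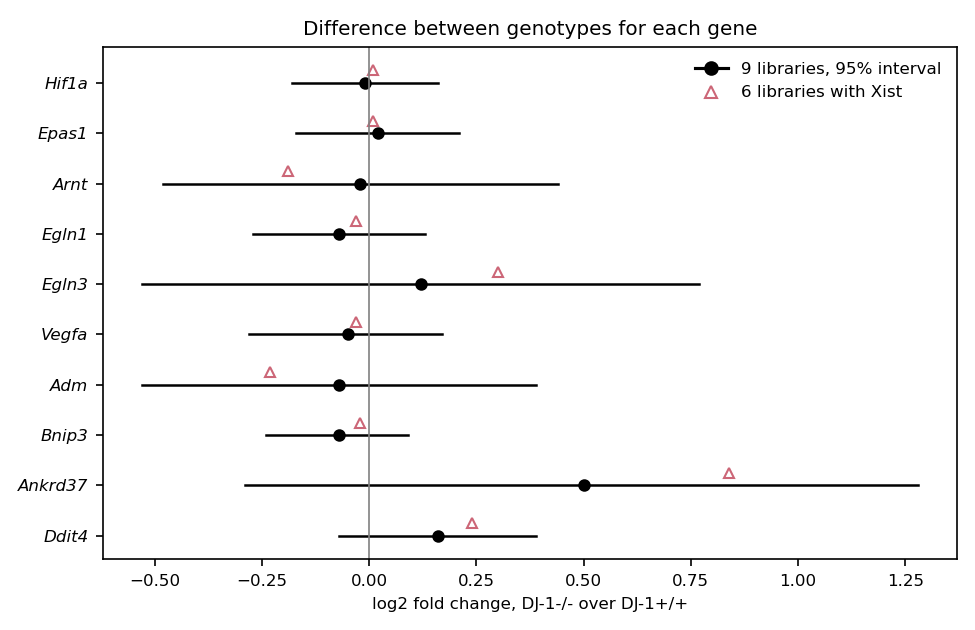
Log2 fold change of DJ-1-/- over DJ-1+/+ for each of the 10 genes over 9 libraries (black points, 95% intervals) and over the 6 libraries with Xist (open triangles). All 10 intervals include 0, and the widest is that of Ankrd37, from -0.29 to 1.28.

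The order of the levels was set by a handful of steps. Each transcript is read once at its 3′ end, so counts were not divided by length, but the compressed range described above limits comparisons between genes. Bnip3 averaged 136 ± 7.40, Hif1a 130 ± 8.41 and Epas1 128 ± 10.9 cpm (SD, n = 9). These neighbours overlapped, with Bnip3 above Hif1a in 6 of 9 libraries and Hif1a above Epas1 in 3 of 9. Egln1 followed at 106 ± 10.3 cpm (SD, n = 9), below Epas1 in 8 of 9 libraries. Ddit4 at 75.5 and Vegfa at 75.3 cpm were lower than Egln1 in every library and did not differ from each other, with Ddit4 higher in 5 of 9. A further step led to Adm, Egln3 and Arnt at 27.3, 25.8 and 24.3 cpm, whose ranges overlapped, and a last one to Ankrd37 at 9.91 ± 3.70 cpm (SD, n = 9), the lowest in all 9 libraries. By mean level Bnip3 stood above 90.5% of the genes tested and Ankrd37 above 29.6%.

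Some members varied together over these libraries, though for Hif1a, Egln1 and Vegfa the spread within a genotype did not exceed counting error. Their ratios of variance to mean were 0.54, 0.895 and 0.419. DJ-1+/+ replicate 1 held the highest value of 4 members, Hif1a, Egln1, Egln3 and Vegfa, and the highest sum. It was also the library with the most cerebellar transcripts, at 1157 cpm over 8 cerebellar markers against 341 to 554 cpm elsewhere, and had no Xist count. The part of either in these levels was not tested. After centring log2(cpm + 1) on each genotype, Hif1a correlated with Vegfa and with Egln1 (Pearson r = 0.87 for each) over the 9 libraries, which share one tissue and similar depth. Without that library r was 0.73 and 0.61. Egln1 with Vegfa went from 0.73 to 0.33. Epas1 with Egln3 went from 0.71 to 0.91, and Egln3 with Adm from -0.77 to -0.67. Other pairs moved further, such as Egln1 with Ddit4 from 0.12 to -0.84 and Vegfa with Adm from 0.06 to 0.68. The pairs named are some of those among the members. These are descriptions of few libraries, with no test. DJ-1+/+ replicate 4 held the lowest value of Hif1a, Egln1 and Egln3.

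For each member with a mean of at least 20 counts, the genes of the most similar pattern were sought among 10769 genes by the same centred correlation. Hif1a was most like Samd4 and Pfn2 (r = 0.98 each) and Elovl5 (0.97). Epas1 was most like Wrap53 and Scg5 (0.94 each) and mt-Nd4l (0.93). Arnt was closest to Fam50a (0.96), Shc4 (0.93) and Rad51d (0.92). For Egln1 the nearest were Abhd14a and Eif3b (0.94 each) and Tcf4 (0.93). For Egln3 they were Gca (0.97), Brox (0.96) and Tbca (0.95). Vegfa stood nearest to Nkiras1 (0.96), Zfp367 (0.93) and Cog1 (0.92), and Adm to D10Wsu102e (0.98), Atrip (0.95) and Caap1 (0.95). Bnip3 had Lrrc17, Lrp1 and Jmy at 0.91, and Ddit4 had Kndc1 (0.96), Acsl3 (0.95) and Btbd3 (0.92). No member appeared among the nearest genes of another. With 9 libraries and 10769 candidates, such values are a description only.

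The wider pathway was examined through 8 further lists of 105 genes. Of these, 103 were tested, 54 with a positive and 49 with a negative log2 fold change, and the median was 0.00. At an unadjusted p of 0.05, 4 were higher and 3 lower in DJ-1-/-, or 6.8% of those tested against 2.82% of all genes, and 3 had cpm that did not overlap (2.91% against 1.25%). None passed the adjusted threshold, every adjusted p being 1. DESeq2 called 2 of the 103 (1.94%), against 1.3% of all genes by the same test. Over the 6 libraries with Xist 2 were called (1.94%) against 2.9% of all genes. Without DJ-1+/+ replicate 4 it was also 2 (1.94%) against 3.22%, so in both settings the share was below that of all genes. In the other edgeR alternatives it was above, at 3.88% to 6.8% against 1.9% to 4.1%.

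Among the HIF family and its partners, 0 of 9 genes passed, with a median log2 fold change of 0.03. Crebbp, a coactivator of HIF, was the most abundant, at 176 ± 6.75 (SD, n = 4) in DJ-1+/+ and 183 ± 11 (SD, n = 5) cpm in DJ-1-/-. Ahr, a receptor that shares Arnt as partner, had the highest log2 fold change at 0.47 (95% interval -0.23 to 1.17). Cited2, which competes with HIF for coactivators, had the lowest at -0.12 (95% interval -0.50 to 0.25). Hif3a, the third alpha subunit, had 1 to 6 counts per library.

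Of 14 genes of oxygen sensing and HIF degradation, 1 passed the unadjusted threshold (7.14%, against 2.82% of all genes). Vhl, which recognises hydroxylated HIF, was lower in DJ-1-/-, at 70.6 ± 5.58 (SD, n = 5) against 82.9 ± 8.18 (SD, n = 4) cpm. The log2 fold change was -0.23 (95% interval -0.46 to -0.01, edgeR p = 0.0438, adjusted p = 1, exact permutation p = 0.0317). It passed in 5 of 17 alternatives, and not over the 6 libraries with Xist, where the value was -0.16.

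P4htm, an endoplasmic reticulum prolyl hydroxylase that can act on HIF, separated the genotypes without overlap, as did 1.25% of all genes. It had 78, 75, 75 and 76 counts in DJ-1+/+ and 98, 108, 100, 102 and 100 counts in DJ-1-/-. In cpm the means were 87.7 ± 3.39 (SD, n = 4) and 100 ± 3.56 (SD, n = 5), and every DJ-1-/- mouse was higher (exact permutation p = 0.0159, the smallest that 4 against 5 allows). The spread between mice was far below counting error, with a ratio of variance to mean of 0.122. The edgeR test, which does not go below counting error, gave a log2 fold change of 0.19 (95% interval -0.01 to 0.40), which did not pass, nor did it in any of the 17 alternatives (0.23 over the 6 libraries with Xist). Elob, a subunit of the Vhl ligase, was the most abundant at 154 and 155 cpm. Siah2 and Siah1a, ubiquitin ligases that act on the hydroxylases, marked the ends of the list at 0.21 and -0.24, neither past the threshold.

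The VEGF list of 8 genes held 2 of the 7 called genes, in opposite directions. That is 25% of the list against 2.82% of all genes, a share that rests on 2 genes. Both also had cpm that did not overlap, against 1.25% of all genes. Vegfc, the lymphatic growth factor, had 14, 16, 19 and 17 counts in DJ-1+/+ and 13, 11, 16, 9 and 16 in DJ-1-/-, or 19.0 ± 2.31 (SD, n = 4) against 12.9 ± 3.22 (SD, n = 5) cpm. In cpm the groups did not overlap, and the log2 fold change was -0.56 (95% interval -1.11 to -0.01, edgeR p = 0.047, adjusted p = 1, exact permutation p = 0.0159). Flt4, its receptor, had 4, 6, 4 and 2 counts in DJ-1+/+ and 8, 12, 8, 7 and 9 in DJ-1-/-. All 5 DJ-1-/- mice lay above the 4 DJ-1+/+ mice in cpm, with a log2 fold change of 0.89 (95% interval 0.06 to 1.72, edgeR p = 0.0352, adjusted p = 1, exact permutation p = 0.0159). Each passed the edgeR test in 7 of 17 alternatives, and neither over the 6 libraries with Xist, where the values were -0.72 and 0.58. Flt1, a receptor of Vegfa and the most abundant of the list, was at 156 ± 14.8 (SD, n = 4) and 149 ± 9.89 (SD, n = 5) cpm, with a log2 fold change of -0.07.

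None of the 5 genes listed for adrenomedullin reception passed. Ramp1, an accessory protein that pairs with Calcrl, was the most abundant at 90.2 and 94.4 cpm. The receptor Calcrl had a log2 fold change of 0.05 (95% interval -0.44 to 0.54) and Ackr3, a decoy receptor, 0.13 (95% interval -0.34 to 0.61). Ramp3, another accessory protein, differed most between mice, with 8.14 to 157 cpm and the same 157 cpm in DJ-1+/+ replicate 4 and DJ-1-/- replicate 5. It was named after its values were seen. Of 6 partners of Bnip3 in mitophagy, 0 passed, with log2 fold changes from -0.09 for Bcl2l1 to 0.06 for Fundc1. Fkbp8, a mitophagy receptor and the most abundant of them, was at 143 cpm in both genotypes.

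Among 9 genes that work with Ddit4 on mTOR, Tsc2 alone passed and was higher in DJ-1-/- (11.1%, against 2.82% of all genes). Tsc2, a subunit of the complex through which Ddit4 restrains mTOR, had 39, 36, 31 and 45 counts in DJ-1+/+ and 66, 67, 58, 53 and 48 in DJ-1-/-. The means were 43.5 ± 6.40 (SD, n = 4) and 57.7 ± 7.30 (SD, n = 5) cpm, and the groups overlapped through DJ-1+/+ replicate 4 and DJ-1-/- replicate 5. Its log2 fold change was 0.40 (95% interval 0.09 to 0.72, edgeR p = 0.0159, adjusted p = 1, exact permutation p = 0.0317). It passed the unadjusted threshold in 16 of 17 alternatives, the exception being without DJ-1+/+ replicate 3. Over the 6 libraries with Xist it was 0.65, also past the unadjusted threshold. Its partner Tsc1 was at 104 and 108 cpm, with a log2 fold change of 0.06 (95% interval -0.14 to 0.26). Sesn2, a stress-induced brake on mTOR, had the lowest value at -0.49 (95% interval -1.06 to 0.08, exact permutation p = 0.127), and Sesn3 the highest level at 122 cpm in both genotypes.

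Of 22 glucose and lactate genes that HIF can drive, 10 had a positive log2 fold change and 1 passed (4.55%, against 2.82% of all genes). Pgam1, a glycolytic mutase, had 36, 37, 43 and 39 counts in DJ-1+/+ and 64, 61, 52, 67 and 51 in DJ-1-/-. The cpm were 44.7 ± 3.63 (SD, n = 4) and 58.4 ± 8 (SD, n = 5), with a log2 fold change of 0.38 (95% interval 0.08 to 0.68, edgeR p = 0.0159, adjusted p = 1, exact permutation p = 0.0317). It passed in 14 of 17 alternatives, not over the 6 libraries with Xist (0.39), with thinned counts or without DJ-1-/- replicate 4. Aldoc was the most abundant at 344 and 337 cpm. The glucose transporter Slc2a1 was at 137 ± 12.4 (SD, n = 4) and 139 ± 6.89 (SD, n = 5) cpm and Ldha at 146 ± 16.6 (SD, n = 4) and 135 ± 4.88 (SD, n = 5) cpm, with log2 fold changes of 0.02 and -0.11. Eno1 had the lowest value at -0.23 (95% interval -0.76 to 0.31), resting on 14 counts in DJ-1-/- replicate 4 against 36 to 52 elsewhere. It shares near-identical sequence with Eno1b, so its counts are uncertain.

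Of 32 other targets, 30 were tested, 15 in each direction, and 2 passed (6.67%, against 2.82% of all genes). Epo, the classical HIF target of the kidney, had no count in any library, and Nos2 had too few to test. Zfp36l1, which promotes decay of short-lived transcripts, was lower in DJ-1-/- at 83.1 ± 8.71 (SD, n = 5) against 98.7 ± 12.3 (SD, n = 4) cpm, a log2 fold change of -0.25 (95% interval -0.48 to -0.02, edgeR p = 0.033, adjusted p = 1, exact permutation p = 0.0635). It passed in 10 of 17 alternatives, and not by DESeq2, with Xist as a covariate or over the 6 libraries with Xist, where the value was -0.21. Ndufa4l2, a mitochondrial target of HIF, had 0, 1, 1 and 0 counts in DJ-1+/+ and 3, 2, 1, 3 and 6 in DJ-1-/- (edgeR p = 0.0259, adjusted p = 1, exact permutation p = 0.0476). All DJ-1+/+ values lay under the limit of 3 counts. The depth-scaled ratio of the 15 to the 2 counts was 5.14, with an exact counting interval from 1.2 to 46.3, and over the 6 libraries with Xist, from 9 and 2 counts, it was 1.94 (0.402 to 18.5). It passed in 11 of 17 alternatives, and not over those libraries or by DESeq2. Jmjd6 had the highest log2 fold change among genes with at least 5 counts per library, 0.26 (exact permutation p = 0.0635), and Car12 the lowest at -0.79 (exact permutation p = 0.778), resting on 48 counts in DJ-1+/+ replicate 4.

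**Figure D4:**
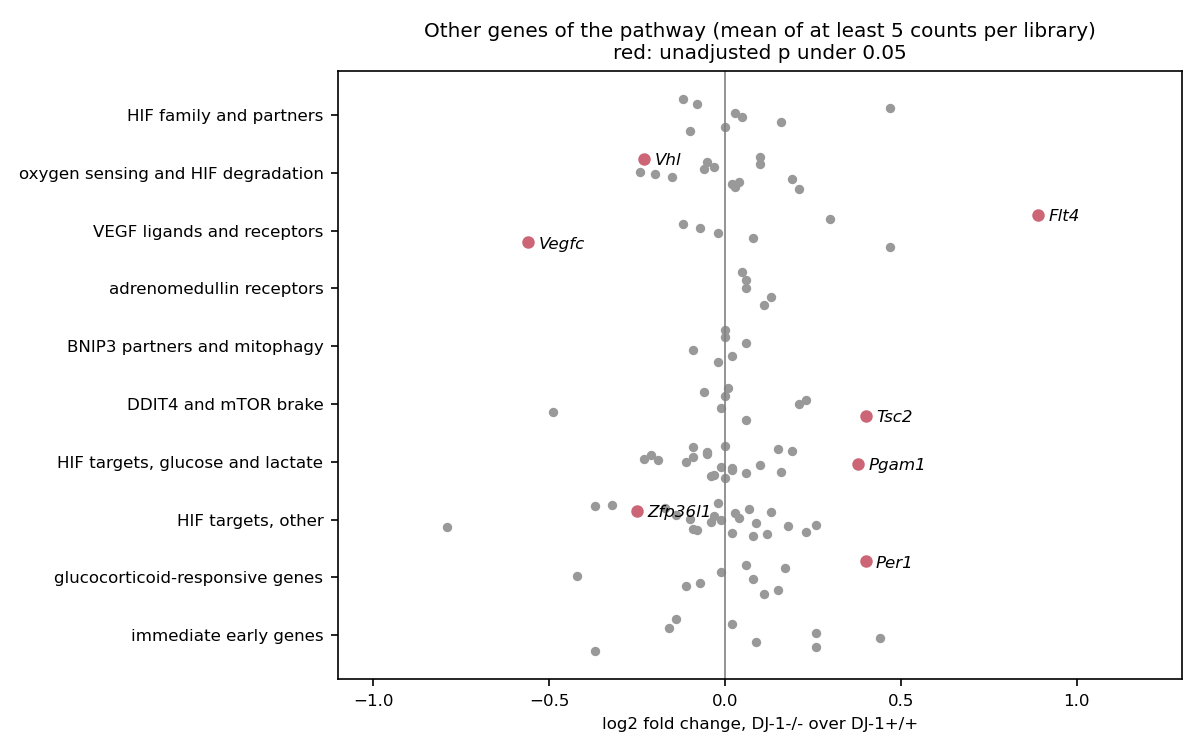
Log2 fold change of DJ-1-/- over DJ-1+/+ for 113 genes of 10 lists, each with a mean of at least 5 counts per library, by list (vertical position within a list has no meaning). The 7 plotted genes with an unadjusted p under 0.05 are in red, Per1 among them, and range from -0.56 for Vegfc to 0.89 for Flt4. Ndufa4l2, called at a mean of 1.89 counts, is under the minimum and is not plotted.

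Ddit4 is also induced by glucocorticoids, so genes of that response were counted, and with them genes of neuronal activity. Of 12 glucocorticoid-responsive genes, 8 had a positive log2 fold change, the median was 0.09 and 1 passed (8.33%). Of all 18127 genes tested, 9386 had a positive value, the median was 0.01 and 2.82% passed. At such shares, counts this small do not stand out. Per1, a clock gene with a glucocorticoid response element, was at 40.8 ± 10 (SD, n = 4) and 53.9 ± 5.92 (SD, n = 5) cpm, with a log2 fold change of 0.40 (95% interval 0.04 to 0.76, edgeR p = 0.0314, adjusted p = 1, exact permutation p = 0.0476), and passed in 11 of 17 alternatives, among them the 6 libraries with Xist (0.56). Nfkbia was the most abundant, with a mean of 124 counts per library, and Pdk4 had the lowest value at -0.42 (95% interval -1.46 to 0.63). Of 10 immediate early genes, which mark recent neuronal firing, 0 passed, with Egr1 the most abundant at 80.8 ± 22.4 (SD, n = 4) and 97.0 ± 20 (SD, n = 5) cpm. Ier2 and Fosb marked the ends at 0.44 and -0.37. Whether either programme has a part in the level of Ddit4 was not tested.

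Markers of 3 regional cell types lay on one side of 0, while those of the other cell types did not. All 10 choroid plexus markers had a negative log2 fold change, with a median of -1.39, and their summed level was 284 to 1077 cpm in DJ-1+/+ and 318 to 433 cpm in DJ-1-/-. All 8 cerebellar markers were on the same side, with a median of -1.57, at 341 to 1157 and 365 to 546 cpm. All 8 dopaminergic markers were on the other side, with a median of 0.51, at 327 to 766 and 570 to 793 cpm. At an unadjusted p of 0.05, 5 of 10 choroid plexus and 5 of 8 cerebellar markers were lower in DJ-1-/-. Of the dopaminergic markers, 4 of 8 were higher. These are 50%, 62.5% and 50%, against 2.82% of all genes, and none passed the adjusted threshold. The choroid plexus sum was 1077 and 596 cpm in DJ-1+/+ replicates 4 and 1, against 284 and 344 cpm in replicates 2 and 3. The cerebellar sum was 1157 cpm in DJ-1+/+ replicate 1, against 341 to 554 cpm in the other DJ-1+/+ mice. The highest choroid plexus and cerebellar sums thus came from those libraries, and the calls within a list are not independent. The dopaminergic sum was 549, 766, 403 and 327 cpm in DJ-1+/+ replicates 1 to 4. Of these, replicate 3 is among the 6 libraries with Xist. How far the calls of these 3 lists rest on single libraries was not tested. The defining markers Gabra6 and Folr1 were at 0 in 5 and in 2 libraries. The summed levels did not pass an exact permutation test (p = 0.317, 0.333 and 0.159). The endothelial, pericyte, meningeal, astrocyte, oligodendrocyte, microglial, neuronal and erythrocyte lists had medians from -0.15 to 0.04. The part of these 3 lists in the small differences of Ddit4, Ankrd37 and Tsc2 was not tested. The values above over the 6 libraries with Xist leave out the libraries with the highest choroid plexus and cerebellar sums.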

How the data were processed

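Midbrain libraries of 4 DJ-1+/+ and 5 DJ-1-/- mice were prepared with the QuantSeq 3′ kit. The authors deposited raw UMI counts per gene for each library, listing no gene with a count of 0. Their notes name fastp 0.20.0, STAR 2.7.3a, featureCounts 2.0.0, Subread and UMI-tools 1.0.0 with GRCm38; the order, annotation and use of strand are not given in the sources used here. The study compared genotypes alone, at an unadjusted p.

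Ensembl identifiers were matched to symbols for 26570 of 26602 genes, and lists by symbol. A minimum of 10 counts summed over the 9 libraries left 18127 genes, which were fitted with edgeR 4.0.16 (quasi-likelihood test, TMM, genotype only, R 4.3.3), with Benjamini-Hochberg adjustment over all genes. Standard errors came from the F statistic, and each 95% interval is the wider of that of the fit and that of counting error. Single genes were also compared by a two-sided exact permutation test of mean cpm (scipy 1.17.1; 126 splits, smallest p 0.0159). Scripts were tested on simulated data. Exact permutation p-values set a difference against the spread between these mice. The edgeR p-values do not go below counting error, which exceeded that spread for some genes.

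Alternatives were DESeq2 1.42.0, other size factors, no filter, counts thinned to equal depth, Xist as a covariate, the 6 libraries with Xist, the replicate number as a block, and each library left out; correlations without DJ-1+/+ replicate 1 were added after seeing the data. The members and lists were chosen with earlier results of these data known. Besides the 10 members, the genes named from each list were those with an unadjusted p under 0.05 or no overlap in cpm, those with the highest and lowest log2 fold change at a mean of at least 5 counts, and the most abundant. Gapdh, mt-Co1, Slc2a1, Ldha, Tsc1, Hif3a, Arnt2, Egln2, Bnip3l, Ramp3, Pgk1, Epo and Nos2 were named outside this rule, after their values were seen.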

Additional observations from a re-analysis of the deposited data

Results flagged for a closer look

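No member had a mouse that stood apart from its group by Dixon's gap-to-range ratio. Among the 88 groups examined, of the 10 members and the genes named from the lists, 4 had one, and chance gives about 1 in 20. Siah2 was low in DJ-1-/- replicate 3, at 37.1 cpm against 46.8 to 48.6 in the other mice of its group. Car12 was high in DJ-1+/+ replicate 4, at 54.2 cpm (48 counts) against 0 to 7.13, in the library with the most choroid plexus transcripts. Egr1 was high in the same library, at 114 cpm against 64.8 to 72.4. Rora, a nuclear receptor, was high in DJ-1-/- replicate 5, at 339 cpm against 160 to 205.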

How the results depend on the processing

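No member passed an adjusted p of 0.05 under any alternative. At an adjusted p of 0.05, 36 genes were called without the filter on low counts, 8 with the replicate block, 3 over the 6 libraries with Xist and 1 to 2 with a library left out. At an unadjusted p it was 802 without the filter, 235 by DESeq2 and 338 to 732 with a library left out, while 0 to 1 members passed and 3 to 7 members were higher in DJ-1-/-. Wider pathway genes called numbered 2 by DESeq2, 2 over the 6 libraries with Xist, 4 with Xist as a covariate and 2 to 7 with a library left out. Signs turned for Hif1a with Xist as a covariate (0.01) and over the 6 libraries with Xist (0.01, or 1.33 cpm), and for Epas1 with thinned counts (-0.02). With a library left out, log2 fold changes ran from -0.06 to 0.05 for Hif1a, -0.02 to 0.07 for Epas1, -0.12 to 0.08 for Arnt, -0.14 to 0.03 for Egln1, -0.06 to 0.44 for Egln3, -0.10 to 0.01 for Vegfa and -0.18 to 0.12 for Adm. Differences in mean cpm ran from -5.32 to 4.65, -2.07 to 6.89, -2.18 to 1.27, -10.6 to 1.71, -1.28 to 6.89, -5.10 to 0.48 and -3.37 to 2.30 for the same genes. Bnip3, Ankrd37 and Ddit4 kept their sign in all 17 alternatives. The causes were not tested. Same-numbered libraries did not pair: deviations correlated at 0.29, 0.0411, -0.119 and -0.186, and 1 of 8 libraries was closest to its own number. The block changed no member's call. Low counts limit Ankrd37 and Arnt most.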

Other observations

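Pgk1, the glycolytic kinase gene that is often used as a HIF target, had a low count for an enzyme of every cell. It had 20, 6, 28 and 22 counts in DJ-1+/+ and 26, 10, 29, 2 and 29 in DJ-1-/-. DJ-1+/+ replicate 2 and DJ-1-/- replicates 2 and 4 were low, and the log2 fold change was -0.21 (95% interval -1.26 to 0.85). Its variance between mice of a genotype was 6.83 times the mean count. Rora and Ramp3 were highest in DJ-1+/+ replicate 4 and DJ-1-/- replicate 5, the mice that were also highest in their group for Ankrd37.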
